A study of Homo sapiens with 36 samples.

Results

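The zinc finger genes numbered ZNF500 to ZNF799 were followed on Illumina bead arrays of 2 human cell lines exposed to cigarette smoke extract (CSE). Every probe was taken whose target name lies between ZNF500 and ZNF799, with or without a trailing letter. This gave 301 of the 47323 probes and 219 of the 34694 gene names on the array. Of these, 188 probes for 150 genes were detected, meaning that 6 or more of the 36 arrays gave a detection p-value below 0.05, and 113 probes were not. Those 113 left 69 gene names without a kept probe, and 60 probes were detected on no array. At the edge of that limit, a probe each of ZNF519, ZNF610 and ZNF611 was kept with detection on 6 arrays, while the only probes of ZNF516, ZNF665 and ZNF701 missed it with 5. A probe detected only in 1 group of 6 arrays could pass, and the kept probes are not all the genes of the range.

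The arrays fell into 4 groups. There were 6 arrays of Jurkat cells with CSE and 12 of untreated Jurkat controls, a leukaemic T cell line. DLD-1, a colorectal adenocarcinoma line of epithelial cells, gave 6 arrays with CSE and 12 untreated controls. Treated flasks received 20% CSE for 2 to 6 h, and the labels give no exposure time for single samples. All cells of both arms grew in flasks, so each group is 1 tumour line and its labels separate treated from control cells by CSE alone. The labels do not call the samples of a group separate cultures. The p-values below therefore rest on sample-to-sample spread that could be technical.

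Most genes of this numbered series encode proteins with repeated C2H2 zinc fingers, in which a zinc ion held by 2 cysteines and 2 histidines shapes a loop that reads DNA. Many carry a KRAB box, which recruits the corepressor TRIM28 and, through it, the histone methyltransferase SETDB1 and HP1 proteins, and which silences transposable elements and some genes. A large share lies in clusters on chromosome 19. Transcripts of such regulators are often short-lived, so their levels can move soon after transcription changes.

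Array quality and labels were checked first. Between 16012 and 19131 probes were detected per array, and 110 to 159 of the 188 kept member probes. On 1 probe, the heat shock gene HSPA6 ran from 7.40 to 12.99 in Jurkat with CSE against 4.55 to 6.75 in control Jurkat, and from 9.25 to 13.64 in DLD-1 with CSE against 4.60 to 5.67 in control DLD-1, as normalized log2 intensity. The 12 treated arrays all lay above their own controls on that probe, with a wide spread among themselves. On the other HSPA6 probe the lowest Jurkat array with CSE, at 5.245, lay below the highest Jurkat control, at 5.93, and the DLD-1 groups did not overlap. CYP1A1, which is induced through the aryl hydrocarbon receptor, had a log2 rise of 4.35 in DLD-1 cells (adjusted p = 4.31e-16) and was not detected on any Jurkat array of either group. The haem oxygenase gene HMOX1 gave 0.40 in Jurkat (adjusted p = 0.384) and rose by 4.37 in DLD-1 (adjusted p = 6.64e-14). Of 12 epithelial marker genes, 10 were detected on most arrays of both DLD-1 groups, and 4 or 3 in Jurkat with CSE and control Jurkat. Of 13 T cell marker genes, 12 were detected on most arrays of both Jurkat groups and 3 in both DLD-1 groups, and 0 of 5 fibroblast markers in any group. Between 1 and 2 of 6 monocyte or B cell markers were detected on most arrays of a group. For Jurkat control replicate 7, title and source give Jurkat but a further label gives DLD-1. The array stayed with Jurkat. On a CD3D probe the 12 control Jurkat arrays, this one among them, ran from 12.45 to 13.45, against 4.36 to 5.46 in control DLD-1. On the CDH1 probe the same 12 ran from 4.37 to 6.07, against 11.92 to 12.255 in control DLD-1. Without that replicate the Jurkat counts below were 33 falls and 7 rises.

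The 4 promoters printed here stand for the results that follow: a gene that fell with CSE in Jurkat (ZNF652), a gene that rose in both lines (ZNF597), and the largest line difference in either direction (ZNF512 and ZNF544). Each is the RefSeq window of GRCh38.p14 from 250 bases before to 50 bases after the annotated start, read 5′ to 3′ along the gene, with every CG dinucleotide in capitals. ZNF652 is at chr17:49362201-49362500 on the minus strand, ZNF597 at chr16:3443455-3443754 on the minus strand, ZNF512 at chr2:27582792-27583091 on the plus strand and ZNF544 at chr19:58228664-58228963 on the plus strand.
ZNF652: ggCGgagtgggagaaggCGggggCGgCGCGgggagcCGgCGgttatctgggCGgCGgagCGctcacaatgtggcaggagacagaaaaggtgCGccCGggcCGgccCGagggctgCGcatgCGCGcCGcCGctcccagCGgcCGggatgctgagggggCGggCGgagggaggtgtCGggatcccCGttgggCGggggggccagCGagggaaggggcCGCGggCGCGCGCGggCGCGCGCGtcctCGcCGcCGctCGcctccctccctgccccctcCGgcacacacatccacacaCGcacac
ZNF597: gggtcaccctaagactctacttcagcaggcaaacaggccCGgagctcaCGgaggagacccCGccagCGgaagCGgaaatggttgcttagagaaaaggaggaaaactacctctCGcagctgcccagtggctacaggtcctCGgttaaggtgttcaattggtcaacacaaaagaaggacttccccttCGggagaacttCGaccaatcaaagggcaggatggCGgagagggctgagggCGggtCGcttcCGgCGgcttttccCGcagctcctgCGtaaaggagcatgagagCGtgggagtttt
ZNF512: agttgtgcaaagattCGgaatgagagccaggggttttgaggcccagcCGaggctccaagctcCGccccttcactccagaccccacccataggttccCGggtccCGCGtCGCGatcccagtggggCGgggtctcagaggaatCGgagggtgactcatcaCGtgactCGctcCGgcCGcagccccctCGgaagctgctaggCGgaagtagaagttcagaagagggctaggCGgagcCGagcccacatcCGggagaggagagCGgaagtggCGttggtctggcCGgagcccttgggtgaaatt
ZNF544: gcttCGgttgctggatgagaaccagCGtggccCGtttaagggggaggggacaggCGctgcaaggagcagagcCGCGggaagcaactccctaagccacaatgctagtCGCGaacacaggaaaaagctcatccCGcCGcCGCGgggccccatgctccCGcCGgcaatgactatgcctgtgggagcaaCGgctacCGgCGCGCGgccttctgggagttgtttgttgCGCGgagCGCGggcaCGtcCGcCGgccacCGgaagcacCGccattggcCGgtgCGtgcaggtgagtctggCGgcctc

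These windows hold 43, 17, 22 and 31 CG dinucleotides, in the order printed. Promoter windows were found for 123 of the 150 genes with a kept probe, and their median was 24 CG, against 14 over the 27305 windows of the whole table. The whole table also holds genes without a kept probe. This comparison and those below with all windows therefore do not set like against like. On chromosome 19 lay 58 of the 123, or 47.2%, against 5.53% of all windows. The heat shock core motif, searched as GAANNTTC or TTCNNGAA, which cover both strands, was present in 16.3% of the members' windows and 13.7% of all. It was in 3 of the 26 windows of genes that fell with CSE in Jurkat (11.5%), in 1 of 7 of those that rose (14.3%), and in none of the 4 printed.

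In Jurkat cells with CSE, 31 of the 188 member probes fell and 8 rose against control Jurkat, and 149 passed in neither direction (limma, Benjamini-Hochberg adjusted p under 0.05 over all 22612 kept probes). The falls made up 16.5% of the members against 10.7% of all kept probes, and the rises 4.26% against 7.40%. Of the 31 falls, 8 were at least 2-fold, 4.26% of the members against 2.02% of all kept probes, and no rise was (0.517% of all kept probes). The median member change was −0.05 on the log2 scale and that of all kept probes 0.02. On the scaling over kept probes by median the members' median was 0.06 and that of all kept probes 0.17. The members' sign thus follows the scaling. Their median lay below that of all probes in each of the 53 alternative settings run. These settings share most of their arrays, and those that left out a DLD-1 array could not alter the Jurkat differences. They are therefore not 53 separate checks. No array overlapped between the 2 Jurkat groups for 7 falls (2.15% of all kept probes did so) and 2 rises (0.761%). Array signal reports RNA relative to the RNA hybridised, so fewer expressing cells and less RNA per cell cannot be told apart.

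ZNF652, a repressor that works with the corepressor CBFA2T3, had the largest fall, and its CG-rich promoter is printed above. Its log2 intensity ran from 8.52 through a median of 8.90 to 9.76 in Jurkat with CSE, against 9.75, 10.10 and 11.05 in control Jurkat. The highest treated array thus reached only the lowest control. The difference was −1.30 ± 0.20 (SE, adjusted p = 4.99e-06), and −1.62, −1.08 and −0.86 on BeadChips 1, 2 and 3 taken alone. Another ZNF652 probe was detected on 5 arrays and was not kept.

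ZNF518B and its relative ZNF518A, large proteins linked to repressive histone methylation complexes, both fell. ZNF518B had 7.81, 7.99 and 8.49 (lowest, median, highest) in Jurkat with CSE, against 8.54, 9.09 and 9.81 in control Jurkat, without overlap. ZNF518A had 6.69, 7.09 and 7.72 in Jurkat with CSE, against 7.37, 8.12 and 9.05 in control Jurkat, with overlap. ZNF518B changed by −1.11 ± 0.20 (SE, adjusted p = 7.91e-05) and ZNF518A by −1.09 ± 0.25 (adjusted p = 0.00179). Both were lower on each BeadChip.

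Among zinc finger genes whose targets are largely unassigned, ZNF594, ZNF714, ZNF549 and ZNF577 fell by more than 2-fold. ZNF594 had 4.94, 5.39 and 6.01 in Jurkat with CSE, against 5.47, 6.79 and 7.29 in control Jurkat. ZNF714 had 4.93, 5.70 and 6.23 in Jurkat with CSE, against 5.99, 6.79 and 7.42 in control Jurkat. For ZNF594 1 control array, and for ZNF714 2, reached into the treated range, and the other controls lay above it. The changes were −1.26 ± 0.33 for ZNF594 (SE, adjusted p = 0.00522) and −1.19 ± 0.16 for ZNF714 (adjusted p = 8.12e-07). ZNF577 had 7.40, 7.97 and 8.59 in Jurkat with CSE, against 8.51, 9.04 and 9.88 in control Jurkat, a change of −1.11 ± 0.19 (SE, adjusted p = 2.19e-05). ZNF549 had 11.49, 11.72 and 12.46 in Jurkat with CSE, against 12.24, 12.96 and 13.55 in control Jurkat on 1 probe (−1.14 ± 0.17, SE, adjusted p = 4.78e-06). Its other kept probe gave −0.08 and did not pass.

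ZNF526 and ZNF786 were lower on every treated Jurkat array than on any control. ZNF526 had 5.26, 6.04 and 6.49 in Jurkat with CSE, against 6.68, 7.03 and 7.51 in control Jurkat (−1.06 ± 0.15, SE, adjusted p = 2.11e-06). ZNF786 had 7.43, 7.71 and 8.39 in Jurkat with CSE, against 8.395, 8.74 and 9.33 in control Jurkat (−0.99 ± 0.16, SE, adjusted p = 1.9e-05). The gap for ZNF786 was narrow and that for ZNF526 wider. ZNF573 was detected on 0 of 6 arrays with CSE and 11 of 12 controls, with 4.49, 4.55 and 4.92 against 5.09, 5.63 and 6.24. Since it was not above background in any treated array, its fall has only a bound of at least 1.38-fold (adjusted p = 4.91e-06). That bound sets the controls' mean against the treated mean after raising each array's value to at least its lowest detected signal. On the authors' deposited normalized values the ZNF573 change was smaller, −0.31 on the log2 scale. This bound and those below therefore hold only for the background correction used here.

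The other 21 falls ran from −0.98 for ZNF682 to −0.38 for ZNF614. ZNF674, an X-linked zinc finger gene, was among those without overlap, with 12.91, 13.27 and 13.62 in Jurkat with CSE against 13.85, 14.14 and 14.28 in control Jurkat (−0.82 ± 0.11, SE, adjusted p = 5.14e-07). ZNF562 (−0.84) and ZNF658 shared that separation. ZNF658 was detected on 0 of 6 arrays with CSE and 7 of 12 controls, which bounds its fall at 1.12-fold or more. ZNF650, which fell by 0.52 on the log2 scale, is now called UBR3, a ubiquitin ligase and no C2H2 protein. ZNF682, ZNF514 and ZNF611 each had another kept probe that did not pass, at −0.26, −0.23 and −0.20.

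Of the 31 falls, 30 had a value below 0 on each of the 3 BeadChips, and the exception, ZNF618, stood at 0.02 on BeadChip 2 and −0.49 over all. Of the 8 rises 7 were above 0 on each BeadChip, ZNF642 being −0.13 on BeadChip 2. These probes were called on the same arrays pooled, so the shared direction was partly built in. On single BeadChips, with 3, 1 and 2 treated Jurkat arrays, 16, 1 and 4 member probes passed as falls. These were 8.51%, 0.532% and 2.13% of the members, against 4.06%, 1.65% and 1.90% of all kept probes. The members' share of falls was above that of all kept probes in 52 of the 53 alternative settings, and BeadChip 2 alone was the exception. Most of these settings share nearly all arrays, so they are not separate checks. Leaving out 1 array at a time gave 26 to 34 falls and 5 to 10 rises. The smallest count of rises, 5, came without Jurkat CSE replicate 1. The ZNF557 fall of −0.57 lost its call without Jurkat CSE replicate 1 and without replicate 3 (adjusted p = 0.0826 in the weaker case).

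The share of falls was also counted by brightness. Kept probes were split at the members' median level, 5.71 on the log2 scale. Among the 94 brighter member probes 22 fell, or 23.4%, against 13.9% of the 13133 kept probes at or above that level. Among the 94 dimmer ones 9 fell, or 9.57%, against 6.27% of the 9479 below it. The members' share was the higher in both parts. Within a part the probes were not matched in brightness, so this split does not set brightness aside.

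ZNF509, now called ZBTB49, a BTB-domain activator of the cell cycle inhibitor gene CDKN1A, had the largest rise in Jurkat. It had 6.38, 6.66 and 6.99 in Jurkat with CSE, against 5.47, 5.96 and 6.378 in control Jurkat, with the lowest treated array just above the highest control. The rise was 0.76 ± 0.15 (SE, adjusted p = 2.96e-04), with 0.80, 0.94 and 0.73 on the 3 BeadChips. ZNF622, the human counterpart of yeast Rei1, which helps to mature the large ribosomal subunit, had 9.26, 9.64 and 9.77 in Jurkat with CSE, against 8.40, 8.98 and 9.41 in control Jurkat. Its groups overlapped, and it rose by 0.61 ± 0.15 (SE, adjusted p = 0.00321). ZNF671, a gene often methylated in tumours, had 7.01, 7.38 and 7.74 in Jurkat with CSE, against 6.31, 6.74 and 7.05 in control Jurkat. It rose by 0.61 ± 0.13 (SE, adjusted p = 3.95e-04), with 0.54, 1.17 and 0.34 on BeadChips 1, 2 and 3.

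ZNF581 had 9.90, 10.04 and 10.33 in Jurkat with CSE, against 9.27, 9.65 and 9.88 in control Jurkat, again without overlap. Its rise of 0.41 ± 0.12 (SE, adjusted p = 0.0143) lost its call without Jurkat CSE replicate 1 (adjusted p = 0.057). ZNF574, ZNF571 and ZNF642 (now ZFP69) also rose, by 0.45, 0.40 and 0.39. ZNF574 and ZNF642 were detected on no control Jurkat array, so their rises have only bounds of at least 1.09-fold and 1.08-fold, and ZNF642 sat at the threshold itself. The other kept probe of ZNF571 gave 0.23 and did not pass.

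**Figure D1:**
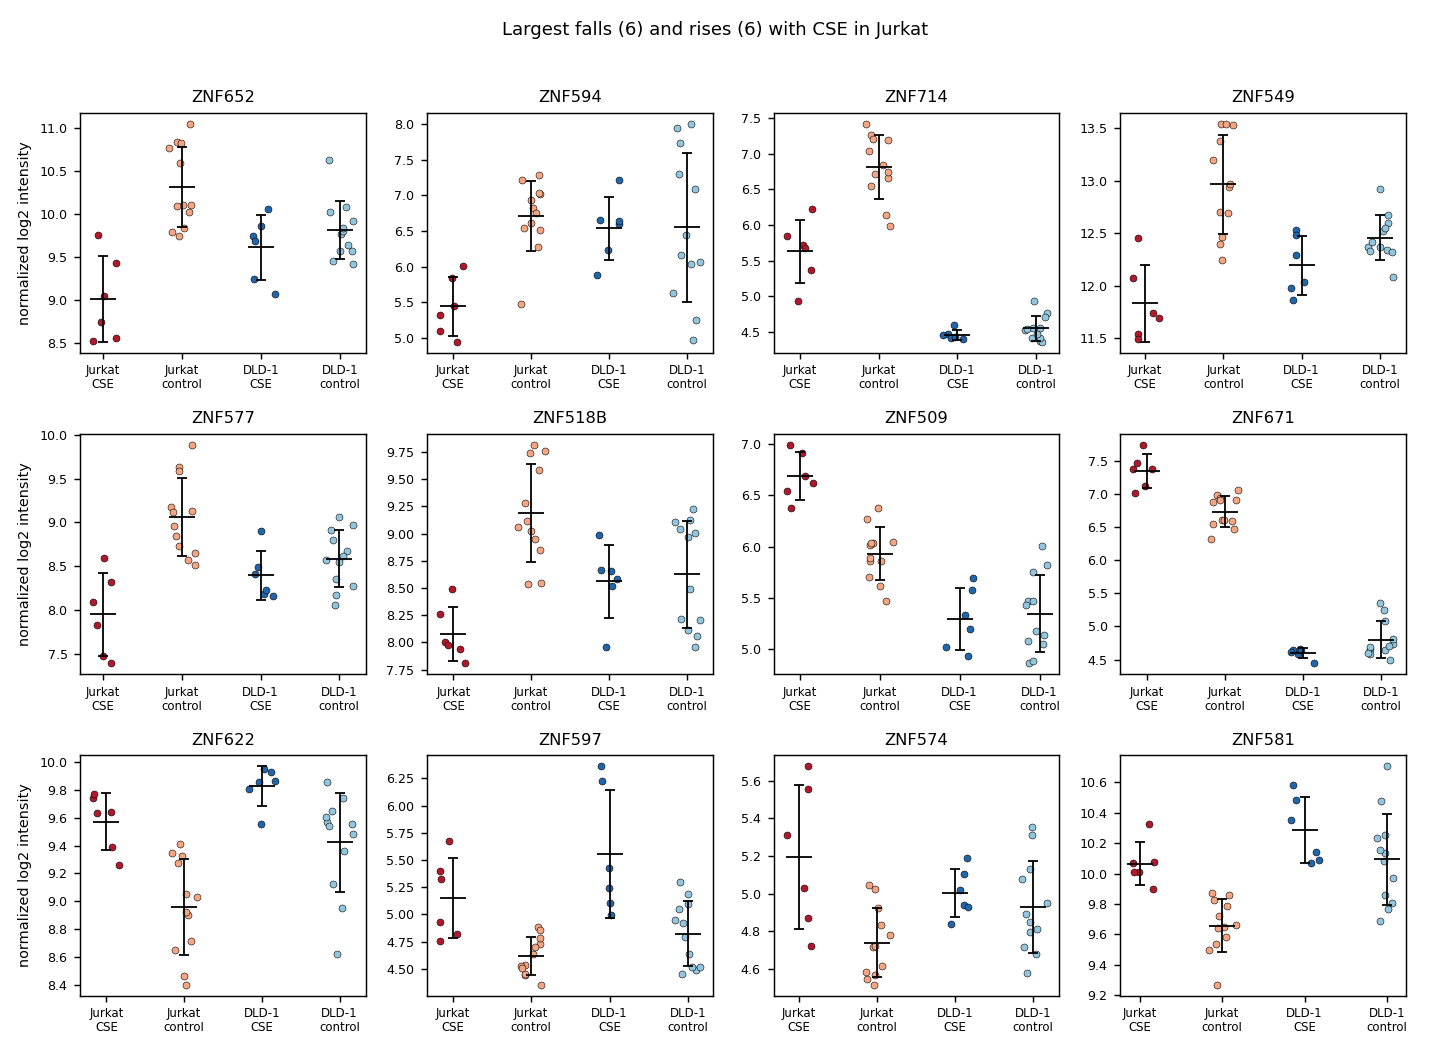
Normalized log2 intensity of the 6 largest falls (ZNF652 to ZNF518B) and 6 largest rises (ZNF509 to ZNF581) with CSE in Jurkat, 1 point per array, with the mean and SD of each of the 4 groups. The treated Jurkat points of ZNF518B all lie below the controls and those of ZNF509 and ZNF581 all above, while in DLD-1 only ZNF597 of these 12 passed the test.

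Other zinc finger families had like shares of falls, and no difference from them was tested. Of 278 kept probes for ZNF genes of other numbers, 45 fell (16.2%) and 22 rose (7.91%) in Jurkat, with a median of −0.04. Of 85 probes for ZBTB, ZSCAN, ZKSCAN, ZFP and KLF genes, 15 fell (17.6%) and 5 rose (5.88%). By position, 12 of 72 member probes of chromosome 19 genes fell (16.7%) and 14 of 80 of the genes elsewhere (17.5%), for the genes with a promoter window.

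**Figure D2:**
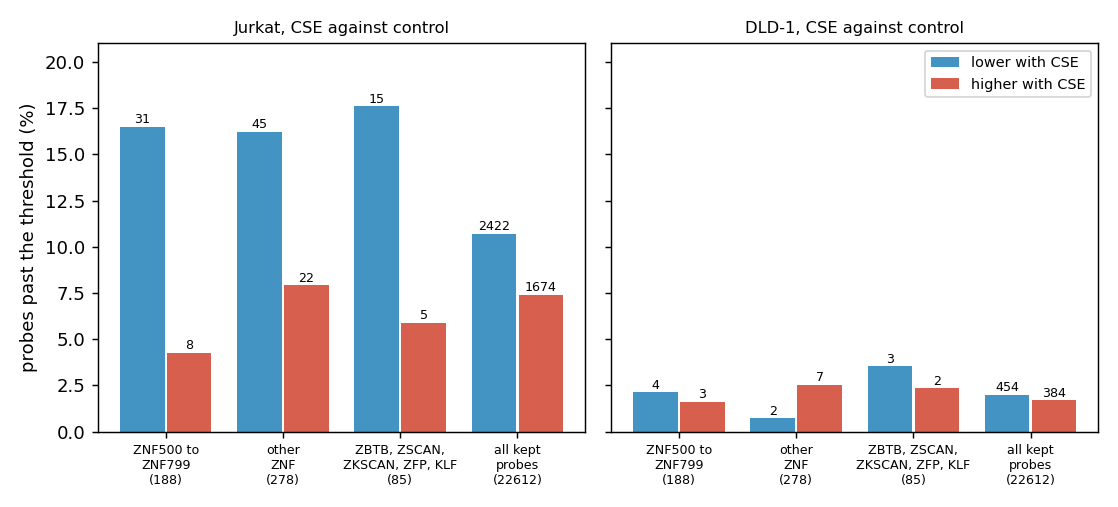
Share of kept probes, in percent, that fell (left bar) or rose (right bar) with CSE at an adjusted p under 0.05, in Jurkat and DLD-1, with the number of probes above each bar and the number tested in parentheses. In Jurkat the bar for falls is 16.5% for the members and 10.7% for all kept probes, and in DLD-1 2.13% and 2.01%.

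In DLD-1 cells with CSE, 4 member probes fell and 3 rose against control DLD-1. The falls were 2.13% of the members against 2.01% of all kept probes and the rises 1.60% against 1.70%, so both shares were near the background. The median member change was 0.00 (−0.0019) on the log2 scale, and for no member did the 2 DLD-1 groups separate (0.234% of all kept probes separated downwards and 0.270% upwards). Among other ZNF probes 2 fell and 7 rose, and among the other families 3 fell and 2 rose.

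ZNF692, which binds the AICA riboside response element, had 4.67, 5.18 and 5.66 in DLD-1 with CSE, against 5.51, 5.95 and 6.62 in control DLD-1. It was detected on 3 of 6 treated and all 12 control arrays and fell by 0.77 on the log2 scale (SE 0.19, adjusted p = 0.0137). ZNF653, a repressor of the nuclear receptor NR5A1, had 5.77, 6.07 and 6.38 in DLD-1 with CSE, against 5.99, 6.63 and 7.12 in control DLD-1 (−0.52 ± 0.13, SE, adjusted p = 0.0139). Both were lower on all 3 BeadChips. Without DLD-1 CSE replicate 3 the adjusted p was 0.0857 for ZNF692 and 0.0786 for ZNF653, and neither call held without DLD-1 CSE replicate 5 either. Leaving out replicate 3 or replicate 5 left 1 fall among the members. Rises numbered 5 without DLD-1 CSE replicate 6 or without control DLD-1 replicate 1, 5, 7 or 9.

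ZNF608, a regulator that curbs Rag gene expression in mouse thymocytes, had 5.45, 6.21 and 6.80 in DLD-1 with CSE, against 6.07, 6.79 and 6.97 in control DLD-1. Its fall of 0.52 on the log2 scale (SE 0.15, adjusted p = 0.0434) was lost on leaving out any of 12 single arrays of the 36, and without DLD-1 CSE replicate 3 the adjusted p was 0.248. On BeadChip 3 alone, with 1 treated array, it stood at 0.05. ZNF791, a zinc finger gene of unassigned target, had the largest rise, with 7.63, 8.04 and 8.85 in DLD-1 with CSE against 6.86, 7.32 and 7.72 in control DLD-1. It rose by 0.86 ± 0.18 (SE, adjusted p = 0.00317), with 0.12, 1.19 and 0.77 on BeadChips 1, 2 and 3. ZNF654 rose by 0.57 ± 0.16 on 1 of its 5 kept probes (SE, adjusted p = 0.0381), with 4.94, 5.63 and 6.00 in DLD-1 with CSE against 4.64, 4.97 and 5.46 in control DLD-1. Its other 4 probes gave −0.10 to 0.41 and did not pass, BeadChip 3 alone gave −0.05 for the probe that did, and the call was lost in 9 of 36 fits (adjusted p = 0.115 without DLD-1 CSE replicate 4).

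**Figure D3:**
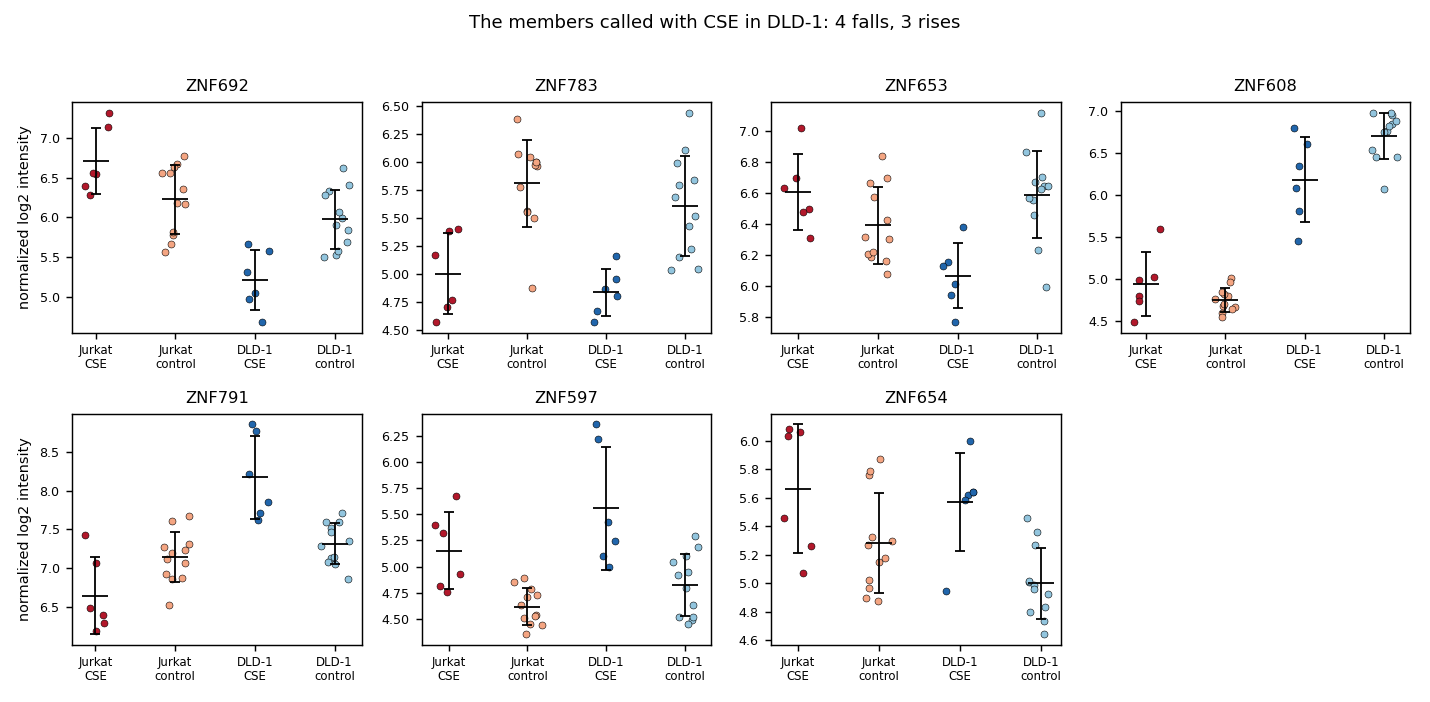
Normalized log2 intensity of the 7 member probes called with CSE in DLD-1, 4 falls (ZNF692, ZNF783, ZNF653 and ZNF608) and 3 rises (ZNF791, ZNF597 and ZNF654), 1 point per array, with the mean and SD of each group. In every panel the treated DLD-1 points overlap the controls, and ZNF783 and ZNF597 moved the same way in Jurkat.

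Set side by side, 2 members passed in both lines, in the same direction, and none passed in opposite directions. These 2 were 1.06% of the members, against 1.25% of all kept probes called in the same direction in both lines and 0.0531% in opposite directions, so the share was near the background. ZNF783 had 4.57, 4.97 and 5.40 in Jurkat with CSE against 4.87, 5.97 and 6.38 in control Jurkat, and 4.57, 4.84 and 5.16 in DLD-1 with CSE against 5.03, 5.61 and 6.44 in control DLD-1. The changes were −0.81 in Jurkat (adjusted p = 0.00142) and −0.77 in DLD-1 (adjusted p = 0.0105), and detection fell to 3 of 6 and 1 of 6 treated arrays, against 11 of 12 controls in each line. ZNF597, an imprinted gene expressed from the maternal copy, has the least CG-rich of the promoters printed above. It had 4.75, 5.13 and 5.67 in Jurkat with CSE against 4.35, 4.58 and 4.89 in control Jurkat, and 4.99, 5.33 and 6.36 in DLD-1 with CSE against 4.46, 4.86 and 5.29 in control DLD-1. In both lines the treated arrays lay higher with some overlap. It rose by 0.73 ± 0.17 in DLD-1 (SE, adjusted p = 0.00625), with 1.55, 0.48 and 0.08 on the 3 BeadChips. In Jurkat it was detected on no control array, so its rise is bounded at 1.06-fold or more (adjusted p = 0.0204). That call was lost without Jurkat CSE replicate 1 (adjusted p = 0.0942) and without replicate 5.

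The test of the difference between the lines asked where the CSE effect was lower or higher in Jurkat than in DLD-1. It was lower for 16 member probes (8.51%, against 3.66% of all kept probes) and higher for 5 (2.66%, against 1.95%). Among other ZNF probes the counts were 23 lower and 3 higher. ZNF791 had the lowest value, with −0.50 in Jurkat, which did not pass, and 0.86 in DLD-1, a difference of −1.35 ± 0.26 (SE, adjusted p = 0.0011). ZNF652 (−1.11), ZNF714 (−1.10), ZNF518B (−1.05) and ZNF529 (−0.96) followed. Of these, ZNF714 and ZNF529 were not above background on any control DLD-1 array, so a fall there could not have been seen and the size of the difference rests on signal at background. For ZNF652 the difference was −1.36, −1.20 and −0.03 on BeadChips 1, 2 and 3 taken alone. On BeadChip 3, with 1 DLD-1 CSE array, ZNF652 gave −0.86 in Jurkat and −0.825 in DLD-1. At the other end ZNF692 had 0.48 in Jurkat, which did not pass, and −0.77 in DLD-1, a difference of 1.25 ± 0.27 (SE, adjusted p = 0.00425). ZNF671 (0.81), ZNF509 (0.81), ZNF653 (0.74) and ZNF608 (0.71) were also higher. ZNF608 was detected on 1 of 6 Jurkat arrays with CSE and on 0 of 12 controls, so a fall in Jurkat could not have been seen. ZNF671 was detected on 0 of 6 DLD-1 arrays with CSE and on 3 of 12 controls, which limits any fall there in the same way. The 31 probes that fell in Jurkat had a median change of −0.09 in DLD-1, and 22 of them had a value below 0 there. So had 95 of all 188 members (median −0.0019) and 11466 of the 22612 kept probes (median −0.0035). No difference from these was tested. Some of the 31, among them ZNF714, ZNF529 and ZNF614, were undetected on every control DLD-1 array. Their sign in DLD-1 thus rests on signal at background. The count of lower probes was 9 without DLD-1 CSE replicate 3, and 10 without DLD-1 CSE replicate 5 or Jurkat CSE replicate 1.

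**Figure D4:**
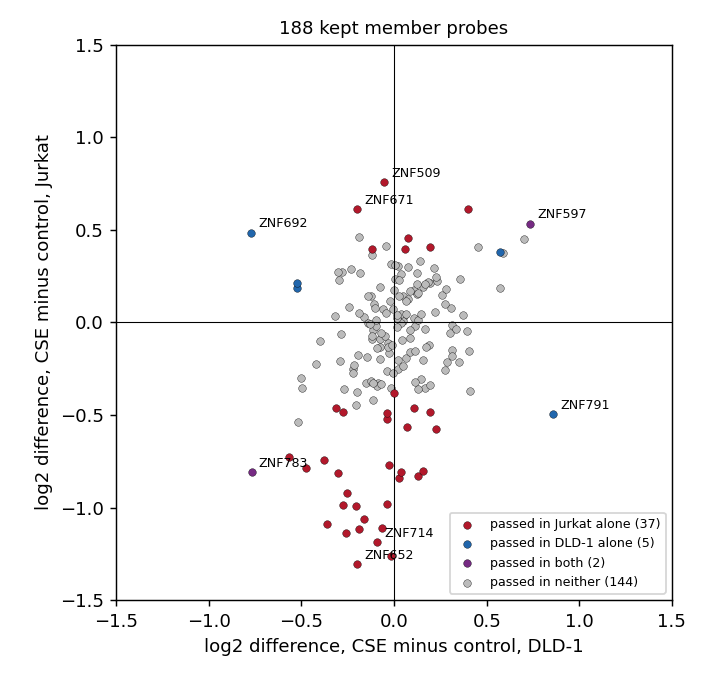
Log2 difference with CSE in Jurkat (vertical) against that in DLD-1 (horizontal) for the 188 kept member probes, coloured by the line in which a probe passed. The 37 probes that passed in Jurkat alone spread along the vertical axis, 5 passed in DLD-1 alone, 2 (ZNF783 and ZNF597) in both and 144 in neither.

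Without CSE the lines differed far more than either changed with it. In control DLD-1 cells 69 member probes were lower and 42 higher than in control Jurkat cells, and 77 passed in neither direction. The lower ones were 36.7% of the members against 32.3% of all kept probes, and the higher ones 22.3% against 27.6%. Differences of at least 2-fold numbered 21 lower and 15 higher. The lower ones were 11.2% of the members and 11.2% of all kept probes, and the higher ones 7.98% against 11.9%. For 40 probes, 22 lower and 18 higher, no array overlapped between the lines, as for 22.8% of all kept probes. The median member difference was −0.11 and that of all kept probes −0.04. Of the probes lower in DLD-1, 17 were detected on none of its 12 control arrays, 13 of them on all 12 control Jurkat arrays. Of those higher in DLD-1, 6 were detected on no control Jurkat array. The filter lets a probe pass on the arrays of 1 line alone. The same counts were not made over all kept probes, so they are no trait of the members.

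ZNF512 differed most. No control DLD-1 array detected it and all 12 control Jurkat arrays did, with 4.36, 4.49 and 4.88 in DLD-1 against 8.94, 9.36 and 9.58 in Jurkat. The lines stood apart with a wide gap, and the level was at least 18.9-fold lower in DLD-1 (adjusted p = 1.74e-37). CSE did not move it past the test in either line (0.07 in DLD-1 and −0.19 in Jurkat). ZNF521, a cofactor that antagonises EBF1 in blood progenitors, had 4.31, 4.42 and 4.46 in control DLD-1 against 6.37, 7.52 and 8.39 in control Jurkat, at least 5.38-fold lower (adjusted p = 4.16e-21). ZNF519, ZNF529, ZNF614 and ZNF548 were likewise undetected on all control DLD-1 arrays and detected on all control Jurkat arrays. Their bounds were at least 6.55-fold, 6.04-fold, 4.94-fold and 4.92-fold lower in DLD-1. These bounds hold for the background correction used here. On the authors' deposited normalized values the log2 differences were smaller, −2.51 for ZNF512, −1.34 for ZNF519, −1.27 for ZNF529 and for ZNF521, −1.15 for ZNF614 and −1.08 for ZNF548.

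ZNF544 was the most strongly raised in DLD-1, with 8.01, 8.79 and 9.42 in control DLD-1 against 4.60, 4.88 and 5.17 in control Jurkat, detected on 12 and 3 of 12 arrays. The difference was 3.93 ± 0.12 (SE, adjusted p = 3.45e-28). ZNF703 and ZNF503, relatives of the NET family of developmental corepressors, were both higher in DLD-1. ZNF703, which is amplified in some luminal breast tumours, had 7.37, 7.80 and 8.13 in control DLD-1 against 4.49, 4.88 and 5.15 in control Jurkat on the probe with its largest difference (2.95 ± 0.11, SE, adjusted p = 6.81e-25). Of its 2 other kept probes, 1 passed but was detected on none of the 12 control Jurkat arrays, so it has only a bound of at least 1.19-fold, and the other gave −0.12 and did not pass. ZNF503 had 6.55, 7.97 and 8.52 in control DLD-1 against 5.00, 5.65 and 6.52 in control Jurkat (2.05 ± 0.21, SE, adjusted p = 2.53e-11). The lowest DLD-1 array of ZNF503 came close to the highest Jurkat one. ZNF621 and ZNF768 were higher in DLD-1 by 2.09 and 2.05, and ZNF608 by at least 3.10-fold, since no control Jurkat array detected it. On the authors' deposited normalized values the log2 difference was 1.98 for ZNF544, 1.24 for ZNF703 and 0.66 for ZNF608. All 12 of these differences passed in every alternative setting run. Over all called members, 67 of the 69 lower and all 42 higher probes kept their direction on each BeadChip. They were called on these same arrays, so this too was partly built in.

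**Figure D5:**
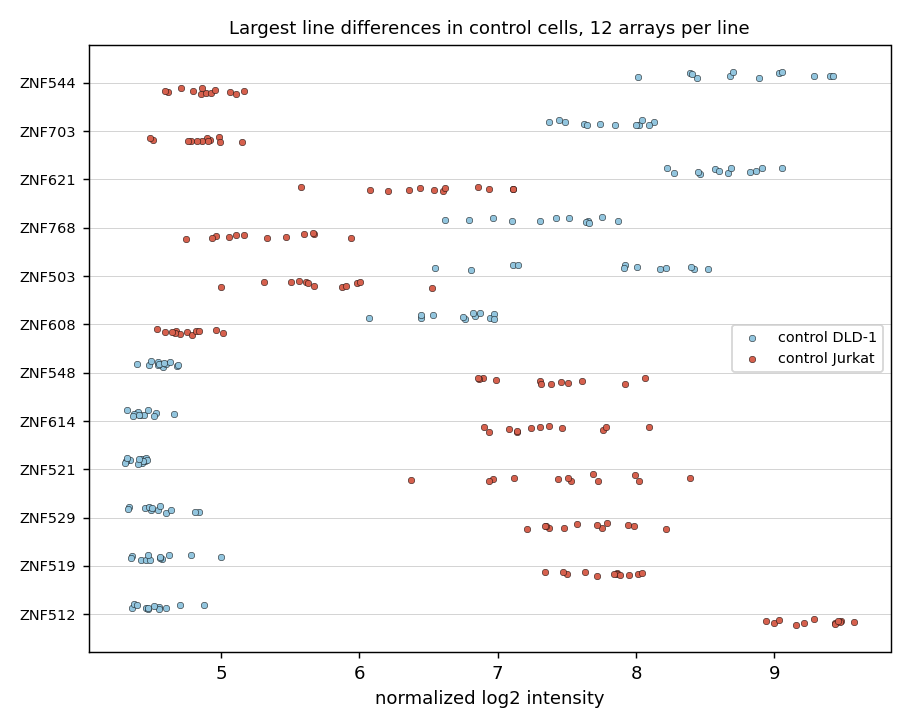
Normalized log2 intensity on the 12 control arrays of DLD-1 and of Jurkat, 1 point per array, for the 6 members most raised (ZNF544 to ZNF608) and the 6 most lowered (ZNF548 to ZNF512) in DLD-1. The lines do not overlap for any of the 12, and the lowered genes sit between 4.31 and 5.00 in DLD-1.

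Members with a known cellular role were few. Of 6 probes for the ribosome and translation genes ZNF593, ZNF598, ZNF622 and ZNF706, ZNF622 rose in Jurkat and none passed in DLD-1. ZNF598, the ligase that marks collided ribosomes, gave 0.27 and 0.33 in Jurkat and did not pass, and ZNF593, which acts in large subunit assembly, gave 0.26 and did not pass. ZNF593 was higher in control DLD-1 than in control Jurkat by 0.96 (adjusted p = 1.62e-07). Of 12 probes for 11 chromatin-linked genes, ZNF518A and ZNF518B fell in Jurkat and ZNF608 in DLD-1. The other chromatin-linked genes ranged from −0.36 to 0.18 in Jurkat and did not pass, among them ZNF644, a partner of the histone methyltransferases G9a and GLP, and ZNF638, which silences unintegrated retroviral DNA. Both ZNF644 probes were lower in control DLD-1, by 0.41 and 0.49 on the log2 scale. None of 7 probes for the developmental genes ZNF503, ZNF521, ZNF589 and ZNF703 passed with CSE in either line. Of 7 probes for 6 signalling and growth genes, ZNF652 fell in Jurkat and ZNF692 in DLD-1. ZNF746, which represses the PGC-1α gene and is cleared by parkin, gave −0.34 in Jurkat and 0.19 in DLD-1 and did not pass.

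Of 27 probes for 17 genes of the KRAB silencing machinery, 3 fell and 1 rose in Jurkat, and 3 fell in DLD-1. The falls were 11.1% in each line, against 10.7% of all kept probes in Jurkat and 2.01% in DLD-1. TRIM33, a relative of TRIM28, fell on 1 of its 2 probes in both lines, by −1.60 in Jurkat and −0.75 in DLD-1, while the other gave 0.04 and 0.13 and did not pass. MPHOSPH8, a subunit of the HUSH silencing complex, changed by −0.64 in Jurkat, and the DNA methyltransferase gene DNMT1 by −0.63 in DLD-1. UHRF1, which recruits DNMT1 to replicated DNA, fell in each line on a different one of its 2 probes. The probe that gave −0.95 in DLD-1 (adjusted p = 0.0125) gave −0.37 in Jurkat and did not pass there. The probe that gave −0.61 in Jurkat (adjusted p = 0.00793) gave −0.23 in DLD-1, did not pass, and was detected on 0 of 6 DLD-1 arrays with CSE. The 1 rise was DAXX, a histone H3.3 chaperone gene, at 0.43 in Jurkat (adjusted p = 0.0205). TRIM28 itself gave 0.15 in Jurkat and −0.09 in DLD-1 and did not pass. It was lower in control DLD-1 than in control Jurkat (−1.10, adjusted p = 4.73e-08). Of the 27 probes 19 were lower there (70.4%, against 32.3% of all kept probes) and 3 higher (11.1%, against 27.6%). Of 30 probes for 23 genes listed for short-lived mRNAs, 7 fell (23.3%) and 5 rose (16.7%) in Jurkat. In DLD-1 6 of them fell (20%) and 3 rose (10%). Of 38 probes for 18 genes listed for long-lived mRNAs, 0 fell and 3 rose (7.89%) in Jurkat, and 0 passed in DLD-1. Of 26 probes for 21 elongation genes, 2 fell and 2 rose in Jurkat (7.69% each), and 1 fell and 1 rose in DLD-1 (3.85% each). Over all kept probes 10.7% fell and 7.40% rose in Jurkat, and 2.01% fell and 1.70% rose in DLD-1. No list was tested against these shares. mRNA half-lives were not measured here.

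Probes of 1 gene did not always go together. Of the 150 genes, 31 had 2 or more kept probes. ZNF557 had 1 probe that fell in Jurkat (−0.57) and 1 at 0.21 that did not pass, and the same pair differed between control lines by −0.59 and 0.52, both past the test. ZNF669 gave −0.32 and 1.62 between control lines, again both past the test. ZNF519 owed its line difference to 1 probe of 3, the others giving −0.14 and −0.24 without passing. The probes' sequences were not used here, so signal from other transcripts of a gene or from closely related zinc finger genes cannot be told apart.

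Neighbours on the chromosome were also compared. Among 26 pairs of adjacent member genes, no pair had both genes past the test in Jurkat, 11 had 1, and 15 had none. In DLD-1 the counts were 0, 2 and 24. Of the 188 member probes 31 fell and 8 rose in Jurkat, and 4 fell and 3 rose in DLD-1. Pairs with both genes past the test would thus be few, and the counts of 0 say little about neighbours. Between control lines 69 member probes were lower and 42 higher. There both genes passed in 13 pairs, 7 with the same sign and 6 with opposite signs. Other adjacent genes were not counted for comparison. The longest run of adjacent members, ZNF768, ZNF747, ZNF764, ZNF688, ZNF785 and ZNF689, gave line differences of 2.05, −0.34, −0.61, 0.85, 0.43 and −0.03 in that order.

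Array by array, the members' median relative to the control mean of the line was −0.18 at the lowest, −0.07 in the middle and −0.02 at the highest in Jurkat with CSE, against −0.13, −0.01 and 0.08 in control Jurkat. In DLD-1 with CSE it was −0.06, −0.02 and 0.04, against −0.16, 0.01 and 0.08 in control DLD-1. The groups overlapped in both lines.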

How the data were processed

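RNA of the 36 samples was hybridised to Illumina bead arrays, 1 sample per array, on 3 BeadChips of 12. The authors deposited a table of average bead intensity per probe, not normalized per the file headers, together with deposited detection p-values. Their series table of normalized intensity values was an alternative. The software was not given in the sources used here. Background was corrected with limma's nec through the deposited detection p-values (offset 16), followed by quantile normalization and log2, so all log2 values were computed here from the deposited intensities (limma 3.58.1, R 4.3.3). The filter kept the 22612 of 47323 probes that 6 or more arrays detected at p below 0.05. A single limma model with a mean per group was fitted to all 36 arrays and kept probes, with Benjamini-Hochberg adjustment within a contrast and a threshold of 0.05. The spread is shared over the groups, so SE and p can be too small for a probe that varied more with CSE. The number of arrays limits the precision.

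BeadChips 1, 2 and 3 held 3, 1 and 2 Jurkat CSE arrays, 4 control Jurkat arrays each, 2, 3 and 1 DLD-1 CSE arrays, and 3, 4 and 5 control DLD-1 arrays. Replicate numbers only name arrays. Alternatives changed the background correction, offset, scaling, filter, BeadChip and arrays used.

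Members, gene lists and tests were chosen with earlier results of these data known. Named genes were the 10 largest falls and 6 largest rises past the threshold in each line, the 5 largest differences between lines' effects in each direction, the 6 largest line differences in each direction, kept members of the role lists, and genes whose probes disagreed in sign with 1 or more past the threshold. Genes outside that rule, such as ZNF674, ZNF658, ZNF618 and ZNF669, were picked after their values were seen. Names were updated through a RefSeq table of GRCh38.p14, 143 of the 150 genes by symbol and 7 by an older symbol. The files state no genome build. Grouping by KRAB box and finger number was not done here, since protein sequences were not used.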

Additional observations from a re-analysis of the deposited data

Results flagged for a closer look

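Single arrays stood apart from the other 5 of their CSE group in 6 of 94 named probe and group pairs by Dixon's test, and chance gives about 1 in 20. In Jurkat with CSE, ZNF573 was 4.92 on replicate 5 (others 4.49 to 4.59), ZNF703 was 5.68 on replicate 6 (others 4.47 to 4.89), and a ZNF557 probe was 7.18 on replicate 1 (others 6.58 to 6.80). In DLD-1 with CSE, ZNF622 was 9.55 on replicate 2 (others 9.80 to 9.95), and replicate 3 was high for ZNF711 at 6.49 (others 5.23 to 5.69) and for ZNF655 at 4.98 (others 4.46 to 4.60).

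The CSE effect differed between the lines for 16 named probes (limma interaction contrast, adjusted p under 0.05). It was lower in Jurkat than in DLD-1 by the following log2 differences: ZNF791 −1.35, ZNF652 −1.11, ZNF714 −1.10, ZNF518B −1.05, ZNF529 −0.96, ZNF577 −0.92, ZNF526 −0.90, ZNF549 −0.87, ZNF786 −0.79, a ZNF654 probe −0.78 and ZNF573 −0.71. The ZNF654 probe gave −0.37 in Jurkat and 0.41 in DLD-1, neither past the test. ZNF573 was not above background on any of the 6 Jurkat arrays with CSE, nor were ZNF714 and ZNF529 on any control DLD-1 array, so the sizes given for them rest on signal at background. The effect was higher in Jurkat for ZNF692 at 1.25, ZNF671 at 0.81 (adjusted p = 0.00449), ZNF509 at 0.81 (adjusted p = 0.0198), ZNF653 at 0.74 and ZNF608 at 0.71. The ZNF608 difference lost its call in 21 of 36 fits that left out 1 array. ZNF608 was detected on no control Jurkat array and ZNF671 on no DLD-1 array with CSE, so these 2 sizes also rest on signal at background in 1 line.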

How the results depend on the processing

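Of 46 named results past the threshold, 38 passed in each of the 36 fits that left out 1 array. No paired analysis was possible because the labels give no replicate numbers shared between groups. With BeadChip as a block, Jurkat had 33 falls and 7 rises and DLD-1 had 4 and 4. Those 33 falls were 17.6% of the members, against 10.9% of all kept probes. Leaving out 1 array gave 26 to 34 falls, 5 to 10 rises and a median of −0.08 to −0.04 in Jurkat. In DLD-1 it gave 1 to 5 falls (1 without DLD-1 CSE replicate 3 or 5), 2 to 5 rises and a median of −0.02 to 0.00 (−0.0164 to 0.004). For the difference of effects it gave 9 to 19 lower and 4 to 6 higher probes, and between control lines 67 to 71 lower and 41 to 43 higher.

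Median scaling over all probes gave 45 falls and 4 rises in Jurkat, with a median of −0.17 (−0.165). The falls were 23.9% of the members, against 14.6% of all kept probes. It also gave 2 falls in DLD-1 (1.06%, against 0.933% of all kept probes) and 1 higher difference of effects. Rises were then 12.4% of all calls in Jurkat, against 40.9% in the main setting. Median scaling over kept probes, chosen after seeing the data, gave 29 falls and 10 rises in Jurkat, with a median of 0.06 (0.0603). The falls were 15.4% of the members, against 9.09% of all kept probes. With that scaling DLD-1 had 5 rises, and rises were 60.8% of all calls in Jurkat. Without a filter on dim probes 10 differences of effects were lower, the stricter filter gave 5 rises in Jurkat, and array weights gave 5 rises in DLD-1. On BeadChip 1 alone Jurkat had 16 falls and 1 rise, DLD-1 0 and 0, the difference of effects 0 and 0, and 41 probes were lower in control DLD-1. On BeadChip 2 alone Jurkat had 1 fall, 1 rise and a median of −0.13, DLD-1 had 9 falls, and the difference of effects had 2 lower and 0 higher. On BeadChip 3 alone Jurkat had 4 falls and 0 rises, DLD-1 0 and 0, and the difference of effects 0 and 0. There the called DLD-1 values of ZNF608 and of the ZNF654 probe turned sign, at 0.0495 and −0.0512. The 9 DLD-1 falls on BeadChip 2 were 4.79% of the members, against 1.68% of all kept probes. Single BeadChips hold fewer arrays, and for the other settings the cause was not tested. Fitting each line alone gives no difference between lines. The authors' normalized values gave smaller changes, such as −0.47 for ZNF714. Signal near background limits the changes of dim members.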
